A study of Neurospora crassa with 6 samples.

Results

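*poi-2* (NCU05768) and the 2 genes that precede it on the chromosome, NCU05766 and NCU05767, form a run of 3 adjacent genes among the 9872 entries of the expression table of *Neurospora crassa*. The members were chosen from these same libraries, because their transcript levels were higher at the protoperithecial stage than in vegetative hyphae of the wild type and lower in both MAP kinase mutants than in the protoperithecial wild type. Their values in those comparisons are therefore given as a description, with no test.

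RNA was sequenced from 3 strains at 2 stages, which gives 6 conditions with 1 library each, and each library pools the RNA of 3 repeats. The mutants lacking *mak-1* (Δ*mak-1*) or *mak-2* (Δ*mak-2*), both of mating type a, and the wild type came from a public stock collection, so each mutant is a single strain, and which of the study's wild-type strains was sequenced is not given in the sources used here. For the protoperithecial stage, cultures grew for 3.5 days at 25°C in darkness on cellophane laid over synthetic crossing medium (SC) holding 0.1% sucrose. For the vegetative stage, cultures grew for 22 h in liquid Vogel's medium, shaken, at 28°C. Stage, medium, surface, temperature and culture time changed together and cannot be told apart.

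Protoperithecia are the female structures of *N. crassa*, which form when nitrogen is scarce and grow into perithecia, the fruiting bodies, after fertilization. MAK-2 is the MAP kinase of the pheromone response (PR) pathway and MAK-1 that of the cell wall integrity (CWI) pathway, and mutants lacking either kinase are known not to form normal protoperithecia, so in the mutants the stage names the culture and not the structure. *poi-2* (plenty of it-2) is known in *N. crassa* as a gene with abundant transcripts in sexual and perithecial tissue. NCU05767 is listed by the study as the zinc finger transcription factor gene *znf-10*, and NCU05766 carries no annotated function in the table.

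Levels are RPKM, that is reads scaled by exon model length and by library size, and the reads behind each value were recovered from the table. Mapped reads ranged between 2602076 and 3668046 per library, and a value with few reads is correspondingly imprecise. Ranges in parentheses after a level or a ratio are exact 95% counting intervals, which do not cover differences between cultures. The labels were checked on the deleted genes. *mak-2* had 0 reads in both libraries of Δ*mak-2*, against 2059 reads at the protoperithecial stage and 189 reads at the vegetative stage in the wild type. *mak-1* had 6.08 RPKM at the protoperithecial stage and 6.39 RPKM at the vegetative stage in Δ*mak-1*, against 148 and 42.1 RPKM in the wild type. These values in Δ*mak-1* rest on 52 and 50 reads of the entry NCU11376. The study itself reports *mak-1* at 0 RPKM in both libraries of Δ*mak-1*, with the same wild-type levels, and the source of this difference was not tested. *mus-51*, whose deletion strains served to make knockout mutants, also had 0 reads in both libraries of Δ*mak-2*. At the protoperithecial stage it had 292 reads in Δ*mak-1* and 105 reads in the wild type, and at the vegetative stage 139 reads in Δ*mak-1* and 77 reads in the wild type. A part of a second deletion in the values of Δ*mak-2* was not tested.

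At the protoperithecial stage, *poi-2* had 3.84 RPKM (15 reads) in Δ*mak-1* and 2.51 RPKM (9 reads) in Δ*mak-2*, against 2072 RPKM (7277 reads, interval 2025 to 2120) in the wild type. At the vegetative stage it had 0.560 RPKM (2 reads) in Δ*mak-1* and 3.28 RPKM (10 reads) in Δ*mak-2*, against 1.81 RPKM (5 reads) in the wild type. Only the wild-type library of the protoperithecial stage was high, and it held 99.4% of the RPKM summed over the 6 libraries. In that library *poi-2* ranked 41 of 8648 entries above 0 and took 0.220% of mapped reads. In the other 5 libraries it ranked no higher than 6303, its place among 8303 entries in vegetative hyphae of Δ*mak-2*.

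At the protoperithecial stage, NCU05766 had 3.54 RPKM (8 reads) in Δ*mak-1* and 1.93 RPKM (4 reads) in Δ*mak-2*, against 49.2 RPKM (100 reads, interval 40.0 to 59.8) in the wild type. At the vegetative stage it had 0.483 RPKM (1 read) in Δ*mak-1* and 1.13 RPKM (2 reads) in Δ*mak-2*, against 1.25 RPKM (2 reads) in the wild type. Again the wild-type library of the protoperithecial stage stood above the rest, with 85.5% of the summed RPKM and rank 2734.

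At the protoperithecial stage, NCU05767 had 2.89 RPKM (21 reads) in Δ*mak-1* and 1.20 RPKM (8 reads) in Δ*mak-2*, against 10.7 RPKM (70 reads, interval 8.34 to 13.5) in the wild type. At the vegetative stage it had 0 reads in both mutants, which allows up to 0.450 RPKM in Δ*mak-1* and 0.528 RPKM in Δ*mak-2* at 3 reads, against 0.388 RPKM (2 reads) in the wild type. This transcription factor gene was the least abundant of the members in the protoperithecial wild type, at rank 5881 and just above the minimum of 10 RPKM used below, and that library held 70.5% of its summed RPKM. Of 9233 entries above 0 in any library, the members included, 424 (4.59%) had over 50% of their summed RPKM in the wild-type library of the protoperithecial stage.

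**Figure D1:**
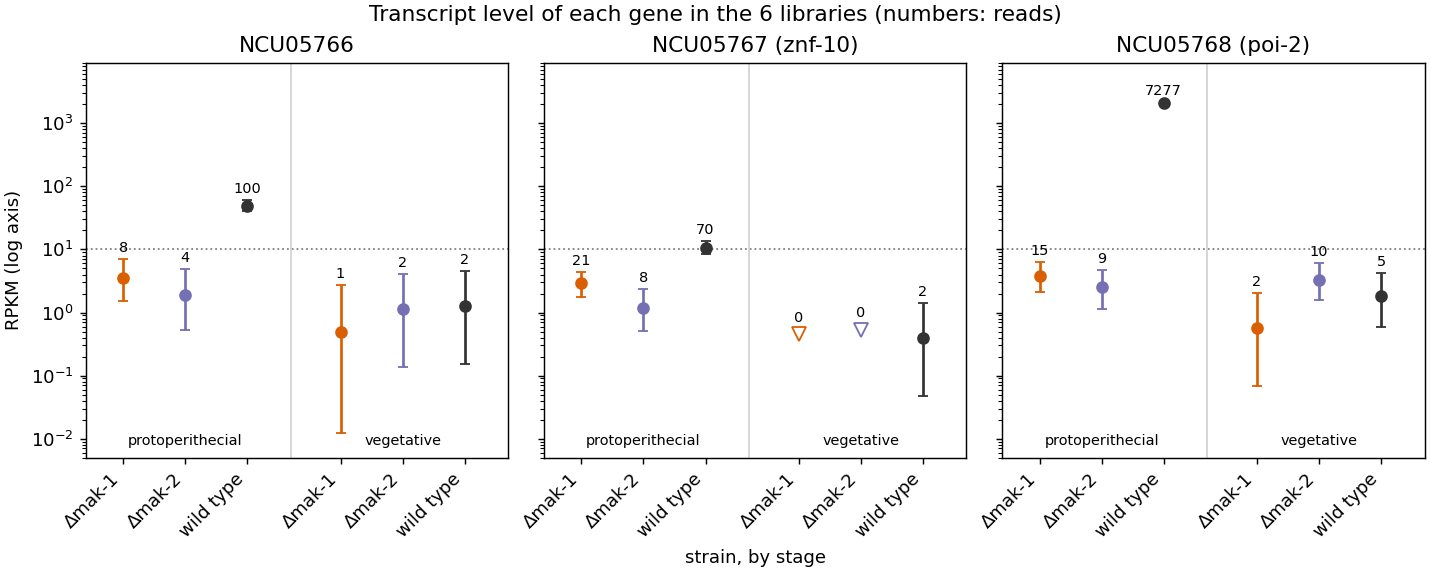
Transcript level of NCU05766, NCU05767 (*znf-10*) and *poi-2* in the 6 libraries, in RPKM on a log axis, by strain and stage; points are single libraries, bars are exact 95% counting intervals, the printed numbers are reads, and open triangles mark 0 reads at the level of 3 reads. The dotted line is the minimum of 10 RPKM, and only the wild-type library of the protoperithecial stage lies above it, at 49.2 RPKM for NCU05766, 10.7 RPKM for NCU05767 and 2072 RPKM for *poi-2*.

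When the 6 libraries were ordered by level, the wild type at the protoperithecial stage came first for each member, and Δ*mak-1* at the same stage came next. The step between these libraries was 539-fold (327 to 964) for *poi-2*, 13.9-fold (6.78 to 33.1) for NCU05766 and 3.70-fold (2.25 to 6.35) for NCU05767. Below that step the order was mostly not resolved by the reads. The interval of every further step between neighbours in the order held 1 for *poi-2* and NCU05766. For NCU05767 Δ*mak-1* stood above Δ*mak-2* at the protoperithecial stage by 2.41-fold (1.03 to 6.30), and the intervals of the lower steps that could be computed held 1.

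In the wild type, *poi-2* was 1147-fold (491 to 3534) higher at the protoperithecial stage than in vegetative hyphae. The ratio was 39.4 (10.6 to 330) for NCU05766 and 27.6 (7.36 to 232) for NCU05767, whose vegetative levels rest on 2 reads each. Calls followed the study's criteria. A change was called where a ratio exceeded 2, or lay below 0.5, with over 10 RPKM in at least 1 library of the pair. All 3 members were called increased, a call that the choice of members fixes, as were 2894 of 6225 entries tested (46.5%). The median ratio over all 6225 entries was 1.86. Of 5956 entries with at least 50 reads in the protoperithecial wild type, 46 had a higher ratio than *poi-2*, 173 than NCU05766 and 219 than NCU05767, but 40 of these in each case had 0 vegetative reads, so their place is not resolved.

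Compared with the wild type at the protoperithecial stage, *poi-2* was at 0.00185 (0.00104 to 0.00306) of the wild-type level in Δ*mak-1*. NCU05766 was at 0.0720 (0.0303 to 0.147) and NCU05767 at 0.270 (0.157 to 0.445) of the wild-type level in this mutant. All 3 members were called decreased, as the choice of members fixes, beside 536 of 6418 entries tested (8.35%), and the median ratio over all 6418 was 1.05. Among the 5956 entries with at least 50 wild-type reads, NCU08657 (3 reads in Δ*mak-1*) and NCU09339 (0 reads), both without an annotated function, had a lower ratio than *poi-2*, which so few reads do not resolve.

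In Δ*mak-2*, *poi-2* was at 0.00121 (0.000553 to 0.00230) of the wild-type level at the protoperithecial stage. NCU05766 was at 0.0392 (0.0105 to 0.103) and NCU05767 at 0.112 (0.0465 to 0.233). Again all 3 members were called decreased, as their choice fixes, beside 675 of 6305 entries tested (10.7%), and the median ratio over all 6305 was 0.998. The 5 entries with a ratio below that of *poi-2* all had 0 reads in this mutant, and they were *mak-2* itself, *mus-51*, NCU05764, NCU09171 and NCU11364. Their order against *poi-2* is not resolved, since at 3 reads even *mak-2*, with the most wild-type reads of them, would be at 0.00143 of the wild-type level. In both mutants 25 entries had a ratio below that of NCU05766 and 75 below that of NCU05767. Increased in the wild type and decreased in both mutants were 328 of 6225 entries (5.27%), the members among them.

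**Figure D2:**
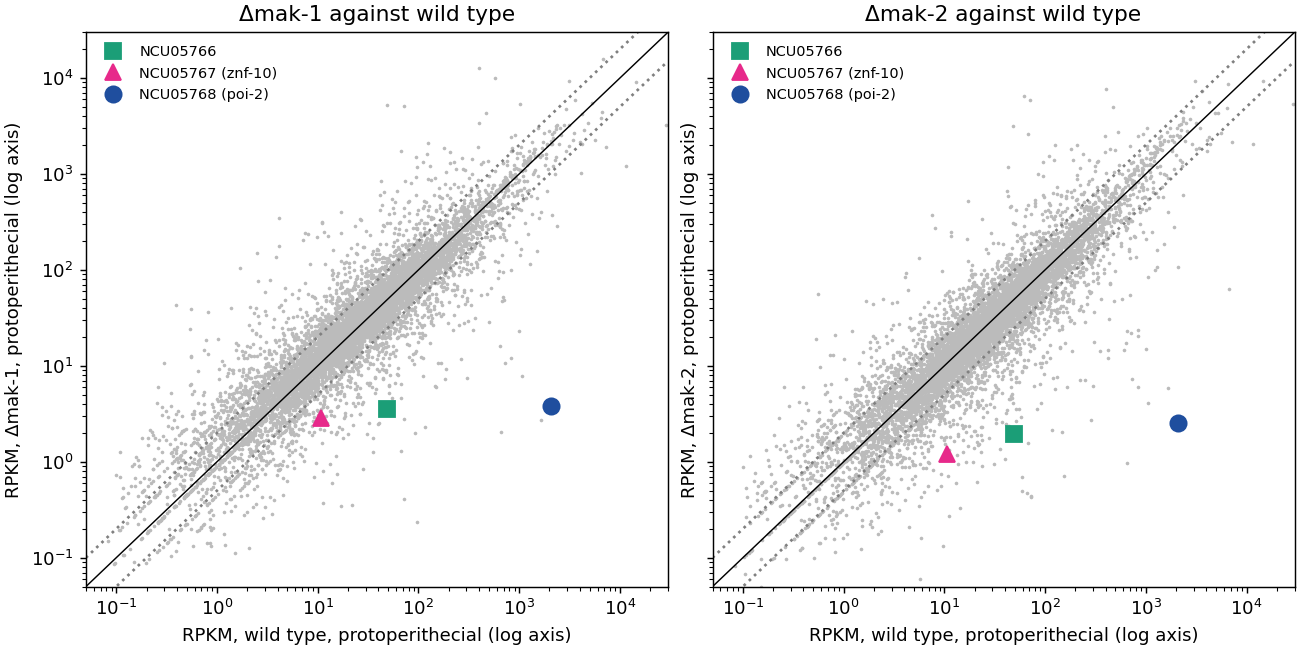
RPKM of each mutant (vertical) against the wild type (horizontal) at the protoperithecial stage, both on log axes, with 1 grey point per entry above 0 in both libraries; the solid line marks equal levels and the dotted lines ratios of 2 and 0.5. *poi-2* (circle), NCU05766 (square) and NCU05767 (triangle) lie below the lower dotted line in both mutants, *poi-2* at 3.84 and 2.51 RPKM against 2072 RPKM.

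The RNA came from whole mycelium, so fewer cells of a type and less RNA per cell cannot be told apart. At the protoperithecial stage, both mutants had higher levels of markers of asexual spores. The conidial genes *con-6*, *con-8*, *con-10* and *eas*, the last of which encodes the hydrophobin of the spore coat, were all 4 called increased in each mutant at the protoperithecial stage, beside 11% of entries in Δ*mak-1* and 8.56% in Δ*mak-2*. They summed to 15786 RPKM in Δ*mak-1* and 17021 RPKM in Δ*mak-2*, against 900 RPKM in the wild type. At the vegetative stage they summed to 2616 RPKM in Δ*mak-1* and 48766 RPKM in Δ*mak-2*, against 2305 RPKM in the wild type. In the mutants these sums were mostly *eas*, at 2504 RPKM in Δ*mak-1* and 47036 RPKM in Δ*mak-2*. In the wild type *eas* had 703 RPKM and *con-8* had 1431 RPKM. At this stage *con-6*, *con-8* and *con-10* were called decreased in Δ*mak-1*, with ratios of 0.0628, 0.0728 and 0.0348 to the wild type. In vegetative Δ*mak-2*, *con-6* and *con-10* were decreased, with ratios of 0.237 and 0.128, and *con-8* had a ratio of 1.19. Their part in the low levels of the 3 members was not tested.

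Within the mutants, each member stayed under 10 RPKM at both stages, and few reads bear on the change with stage. In Δ*mak-1*, *poi-2* was 6.87-fold (1.60 to 61.9) higher at the protoperithecial stage than at the vegetative stage, from 15 against 2 reads. For NCU05766 the ratio in Δ*mak-1* was 7.32 (0.982 to 325), and for NCU05767 (21 against 0 reads) its lower counting limit was 4.77. The whole interval lay above 1 for *poi-2* and NCU05767, as it did for 49.5% of 8812 entries. None of the members was called increased in Δ*mak-1*, or decreased, beside 32.6% increased and 9.48% decreased among 6359 entries tested.

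In Δ*mak-2*, *poi-2* had a protoperithecial to vegetative ratio of 0.765 (0.275 to 2.09). The ratio was 1.70 (0.244 to 18.8) for NCU05766, and its lower counting limit was 1.45 for NCU05767 (8 against 0 reads). Only for NCU05767 did the whole interval lie above 1, as it did for 54.4% of 8754 entries. None of the members was called in this mutant, beside 41.4% increased and 9.41% decreased among 6103 entries tested.

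At the vegetative stage no member reached 10 RPKM in any strain, so none was called in either mutant, beside 18.5% increased and 6.77% decreased entries in Δ*mak-1* and 7.26% increased and 6.41% decreased entries in Δ*mak-2*. For *poi-2* the mutant to wild type ratio was 0.310 (0.0295 to 1.89) in Δ*mak-1* and 1.82 (0.565 to 6.77) in Δ*mak-2*. For NCU05766 these ratios were 0.387 (0.00657 to 7.44) and 0.908 (0.0658 to 12.5). A difference of either mutant from the wild type in vegetative hyphae was therefore not detectable at this depth for either gene. The same held for NCU05767 with its 2 wild-type reads. The mutants were not compared with each other at this stage for *poi-2*, which had 2 reads in Δ*mak-1* and 10 reads in Δ*mak-2*.

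Between the mutants at the protoperithecial stage, the Δ*mak-1* to Δ*mak-2* ratio was 1.53 (0.628 to 3.97) for *poi-2* and 1.84 (0.493 to 8.34) for NCU05766. These intervals allow either mutant to be the higher. For NCU05767 the ratio was 2.41 (1.03 to 6.30), and a whole interval above 1 was found for 23% of 8837 entries. None of the members was called between the mutants, beside 7.31% of 6292 entries higher in Δ*mak-1* and 3.05% lower.

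**Figure D3:**
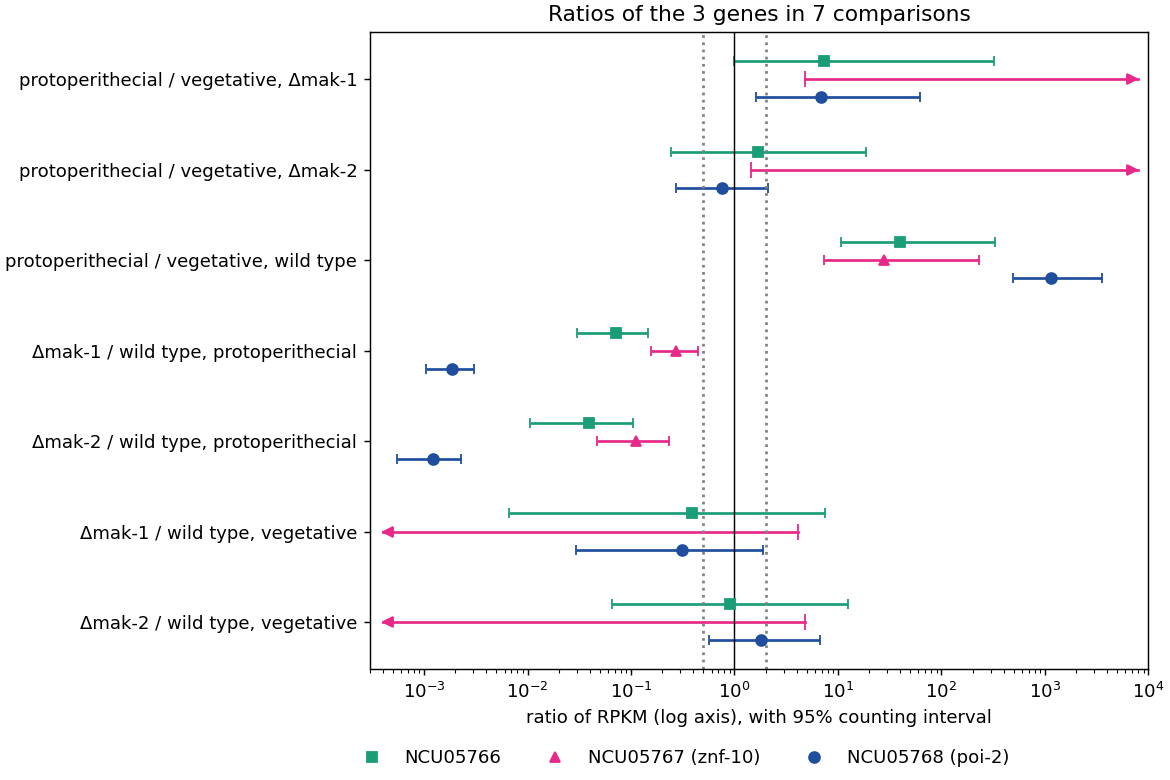
Ratios of RPKM of the 3 genes in 7 comparisons on a log axis, with the first-named library over the second and exact 95% counting intervals; arrows mark intervals with no end on that side because 1 library had 0 reads. The solid line marks a ratio of 1 and the dotted lines ratios of 0.5 and 2. The intervals of *poi-2* in the wild type (491 to 3534) and in the mutants against the wild type (at most 0.00306) at the protoperithecial stage lie farthest from 1.

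The members differed from each other mainly in the wild-type library of the protoperithecial stage. There *poi-2* was 42.1-fold (34.6 to 51.8) above NCU05766 and 194-fold (153 to 249) above NCU05767 per length of exon model, and NCU05766 was 4.60-fold (3.35 to 6.33) above NCU05767. At the same stage *poi-2* was 1.09-fold (0.432 to 2.96) above NCU05766 in Δ*mak-1* and 1.30-fold (0.364 to 5.79) above it in Δ*mak-2*. Its ratio to NCU05767 was 1.33 (0.638 to 2.71) in Δ*mak-1* and 2.10 (0.718 to 6.25) in Δ*mak-2*. In both mutants these intervals held 1, so the levels of the members were not resolved from each other there. In vegetative hyphae of Δ*mak-2*, *poi-2* stood above NCU05767 (10 against 0 reads), with a lower counting limit of 4.18. Every other interval between members at the vegetative stage held 1.

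The other table entries around the run were examined over 10 annotated genes on each side, in the gene order of the RefSeq annotation of assembly NC12. No member overlaps another gene in that annotation. The window held 15 further table entries, 6 before NCU05766 and 9 after *poi-2*. Before the run, 3 of 6 entries were increased in the wild type and decreased in both mutants at the protoperithecial stage, and 5 of 6 were highest of the 6 libraries in the wild type at that stage. After the run, 0 of 9 entries met either description. Over all entries above 0 in any library, 25.9% were highest in the protoperithecial wild type. Of 6225 entries over 10 RPKM in a wild-type library, 5.27% were increased in the wild type and decreased in both mutants. Only 7 of the 15 entries in the window passed that minimum. They were the 3 so called before the run, and *cat-2*, NCU05771, *tom6* and NCU10416 after it. The other entries could not receive this call, so its counts of 3 of 6 and 0 of 9 include untested entries.

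At the near edge before the run, NCU05765 had 18 reads in protoperithecial Δ*mak-1* and 1 read in protoperithecial Δ*mak-2*, against 92 reads (5.68 RPKM) in the wild type of that stage. It stayed outside the run because it was under 10 RPKM, although its ratio between the stages in the wild type was 36.3 (9.76 to 304). NC12 gives its locus tag as the old tag of both NCU17269 and NCU17271, so its reads cannot be assigned to one of them. At the near edge after the run, NCU05769 had 0.385 RPKM in Δ*mak-1* and was listed at 0 in the other 5 libraries.

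Farther before the run, NCU05764 had 1 read in Δ*mak-1* and 0 reads in Δ*mak-2* at the protoperithecial stage, against 96.5 RPKM (367 reads) in the wild type. NCU05761 had 1 read in each mutant, against 72.3 RPKM (159 reads) in the wild type. In vegetative hyphae NCU05764 had 2 reads in Δ*mak-2*, and otherwise both genes had 0 reads in every strain, so the wild-type ratio between stages has only a lower counting limit, of 78.0 for NCU05764 and 33.6 for NCU05761. NCU05763 was listed at 10.1 RPKM and NCU05762 at 0.502 RPKM in the protoperithecial wild type, and both were listed at 0 in the other 5 libraries. NCU05763 overlaps NCU17267 in the annotation, so reads of the overlap cannot be told apart without strand. None of these 4 genes carries an annotated function in the table.

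After the run, *cat-2*, which encodes a catalase-peroxidase, had 952 RPKM in Δ*mak-1* and 653 RPKM in Δ*mak-2*, against 498 RPKM in the protoperithecial wild type. *tom6*, which encodes a subunit of the mitochondrial import pore, had 136 and 173 RPKM in these mutants, against 142 RPKM in the wild type. Neither gene was called changed in a mutant at this stage. The remaining entries after the run had at most 34.5 RPKM at the protoperithecial stage in any strain, the value of NCU05771 in Δ*mak-1*.

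Together with the run, the entries before it formed a stretch of 8 consecutive table entries, NCU05761 to *poi-2*, that were all highest in the protoperithecial wild type. Each of the 8 had at least 70.5% of its summed RPKM in that library. This way of describing the stretch was chosen after the values were seen. Among 9128 entries with a place in the gene order, 8 was the longest such stretch and the only one of that length, while 150 stretches held at least 3 entries. The length of 8 needs NCU05762, which was listed at only 0.502 RPKM in that library and at 0 in the others. Its reads could not be recovered, and without it the stretch would be broken. The reads of NCU05763 could not be recovered either, and at 10.1 RPKM it only just passed the minimum. NCU17267, NCU17268 and NCU17270 lie within the stretch in the RefSeq order but have no table entry, so the 8 entries are not all adjacent genes. The 3 members in the stretch were chosen partly for being high in that library. Of the 8 entries, 6 were also increased in the wild type and decreased in both mutants. Under that stricter description and with direct neighbours only, the run of 3 was 1 of 6 runs of at least 3 genes, and the longest held 4.

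**Figure D4:**
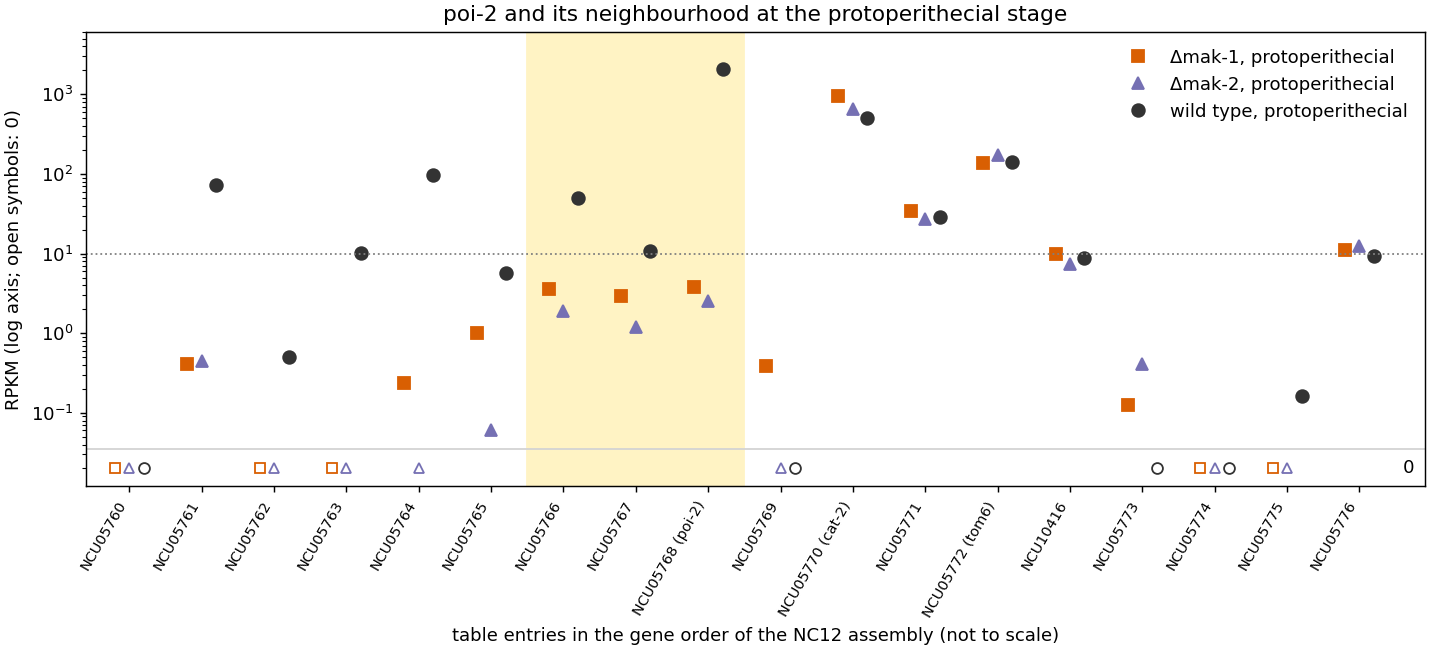
RPKM at the protoperithecial stage on a log axis for the 3 genes (shaded) and the 15 other table entries within 10 annotated genes on each side, in gene order and not to scale; squares are Δ*mak-1*, triangles Δ*mak-2*, circles the wild type, and open symbols at the bottom are values of 0. The dotted line is 10 RPKM. The wild type lies above both mutants in the 8 entries NCU05761 to *poi-2*, while *cat-2* (952, 653 and 498 RPKM) and *tom6* (136, 173 and 142 RPKM) have no call between a mutant and the wild type.

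The genes most like each member were found by the distance between their shares of summed RPKM over the 6 libraries, where 0 means the same shares, among 5955 entries with at least 50 reads in the protoperithecial wild type. For *poi-2* the nearest were NCU05764 (distance 0.00523) and NCU05761 (0.00863) from the same stretch, then NCU08657 (0.00909), NCU09339 (0.0103) and NCU00732 (0.0154). NCU08657 and NCU00732 were abundant as well, with 1647 and 1058 RPKM in the protoperithecial wild type. This likeness rests on 1 high library, and on shares of log2(RPKM + 1) none of the 5 genes was among the 5 nearest to *poi-2*.

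For NCU05766 the nearest genes were NCU04928 (distance 0.0203), NCU06555 (0.0225), NCU03198 (0.0263), NCU04496 (0.0319) and NCU00496 (0.0332). For NCU05767 they were NCU09472 (0.0331), NCU09470 (0.0375), NCU06574 (0.0379), NCU05036 (0.0514) and NCU04489 (0.0526). The members were less like each other than like these genes. The distance to *poi-2* was 0.139 for NCU05766 and 0.291 for NCU05767, and 0.178 lay between NCU05766 and NCU05767. On shares of log2(RPKM + 1), NCU05766 became the fourth nearest entry to *poi-2*.

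The 5 genes besides *poi-2* that the study names as known to take part in sexual development were compared with it. The study chose them partly on these libraries, so they are not independent evidence of a direction. All 5 were called increased in the protoperithecial wild type (46.5% of all entries), with a median ratio of 9.13, and all 5 were decreased in each mutant (8.35% of all entries in Δ*mak-1* and 10.7% in Δ*mak-2*). The median mutant to wild type ratio of the 5 genes was 0.201 in Δ*mak-1* and 0.225 in Δ*mak-2*. *app* encodes an abundant perithecial protein, and the study describes it as an indicator of sexual development. Among the 5 genes *app* was closest to *poi-2* in size, with 2.07 RPKM in Δ*mak-1* and 0.964 RPKM in Δ*mak-2*, against 656 RPKM in the wild type. Unlike *poi-2*, *app* was already at 48.3 RPKM in wild-type vegetative hyphae.

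NCU05767 was set beside 8 transcription regulators of female development, of which *fsd-1* and *vsd-8* are also among the 5 genes above. In the wild type 6 of 8 were called increased at the protoperithecial stage, where 46.5% of all entries were, with a median ratio of 3.53 against 1.86 over all entries. At that stage 4 of 8 were decreased in Δ*mak-1* and 5 of 8 in Δ*mak-2*, beside 8.35% and 10.7% of all entries, with median ratios of 0.473 and 0.329, and none was increased. The 4 decreased in Δ*mak-1* were *fsd-1*, *vsd-8*, *mld-1* and *tcf-27*. The study lists these 4 as co-regulated by both kinases from these same libraries, so their calls are not independent evidence. *asm-1* was decreased in Δ*mak-2*, at 0.373, but not called in Δ*mak-1*, at 0.512. *pp-1*, *adv-1* and *sub-1* were called in neither mutant. *mld-1*, which regulates melanin synthesis, had 2.32 RPKM in Δ*mak-1* and 2.14 RPKM in Δ*mak-2*, against 117 RPKM in the wild type. *fsd-1*, a regulator of female sexual development, had 74.6 and 29.3 RPKM in these mutants, against 178 RPKM in the wild type. *pp-1*, whose product acts downstream of MAK-2, had 58.8 and 51.6 RPKM, against 47.3 RPKM in the wild type. NCU05767 was the least abundant of these regulators in the protoperithecial wild type, below *vsd-8* with 18.4 RPKM.

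The kinases and regulators of the PR and CWI pathways, 11 table entries of which 10 were tested, were set beside the run as well. *ham-5* is counted under both NCU11226 and NCU11227, with wild-type ratios between stages of 2.16 and 1.75, so only the first was called. The list also holds *mak-1* and *mak-2*, whose decrease in their own mutants is fixed by the deletion. Between stages 6 of the 10 were called increased in the wild type, beside 46.5% of all entries, with a median ratio of 2.53 against 1.86 over all entries. In protoperithecial Δ*mak-1*, *mek-1*, the kinase acting on MAK-1, was increased, with 440 RPKM against 55.6 RPKM in the wild type, and *mak-1* itself was decreased. In protoperithecial Δ*mak-2*, *mak-2* and *nrc-1*, the kinase at the head of the PR cascade, were decreased and none was increased. Of all entries, 11% were increased and 8.35% decreased in Δ*mak-1*, and 8.56% and 10.7% in Δ*mak-2*. The median ratios of the list to the wild type were 0.922 in Δ*mak-1* and 0.997 in Δ*mak-2*, against 1.05 and 0.998 over all entries.

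*poi-2* is annotated in the table to sporocarp development, that is the making of the fruiting body, together with 81 other entries. Among these 82 entries it had the highest share of summed RPKM in the protoperithecial wild type and the second highest level there. Of the other entries, 31 of 57 tested were increased and 3 decreased at that stage in the wild type, where 46.5% of all entries tested were increased and 10.3% decreased. Their median ratio was 2.12, against 1.86 over all entries. In protoperithecial Δ*mak-1* 10 of 61 were increased and 6 decreased, beside 11% and 8.35% of all entries, with a median ratio of 0.961. In protoperithecial Δ*mak-2* 5 of 59 were increased and 8 decreased, beside 8.56% and 10.7% of all entries, with a median ratio of 0.858. Counting *poi-2*, 5 of the 82 entries were increased in the wild type and decreased in both mutants. The share over all entries tested was 5.27%, but the 82 include untested entries, as 57 of the 81 others were tested in the wild type. The 2 shares are therefore not on the same base.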

How the data were processed

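RNA-seq of *N. crassa* strains was single-end on the Illumina HiSeq platform. The submitters' processing notes name CASAVA 1.8. Neither an aligner nor a counter or build was named in the sources used here. RPKM values were deposited by the authors, that is reads scaled by exon model length and library size, in a table of 9872 entries, 9808 with an NCU locus. Its 3 ratio columns hold the authors' own comparisons and were not used. Of the entries, 639 were at 0 in every library and 320 above 0 in 1 library. For the other 8913, reads and lengths were recovered from the steps of the values, taken as whole within 1e-06 reads or a relative difference of 2e-09, by a method tested on simulated data. The counts were used for intervals and not for a count test.

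Ratios were taken of RPKM between 2 libraries, in 8 comparisons. With 1 library per condition no test over samples could be run, and p-values are not given. Intervals are exact 95% intervals (Clopper-Pearson for ratios, Poisson for levels) and cover counting error only. Where the library in the denominator had 0 reads, the lower limit of the interval is given. A library with 0 reads was set to 3 reads where a limit of its level is given. Names and gene order came from the RefSeq annotation of NC12, matched by locus tag for 8976 entries and by old tag for 185; as the build of the table is not named, no coordinates are given.

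Named are the members, the table entries within 10 annotated genes on each side, 3 gene lists with 4 conidial markers, the entries annotated to sporocarp development, and the 5 genes nearest to each member by the distance of their shares (sum of absolute differences, scaled to run between 0 and 1). Entries below a member in a mutant were named after their values were seen. The members and lists were chosen with earlier results of these data known. Alternatives were scaling by the median of ratios or β-tubulin, a fold of 3, an RPKM minimum of 20 or none, 1 RPKM added, the whole counting interval past the threshold, log2 shares or at least 10 reads for likeness, and 1 other gene allowed between neighbours. Leaving out a mutant library, and the alternatives for the stretch of 8 entries, were added after seeing the data. Computation used scipy 1.17.1, pandas 2.3.3 and numpy 2.4.6 under Python 3.11.15, and plots matplotlib 3.10.9.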

Additional observations from a re-analysis of the deposited data

Results flagged for a closer look

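For *poi-2*, 4 pairs of ratios under the same contrast pointed in opposite directions. With 1 library per condition these differences were not tested. The protoperithecial to vegetative ratio was 0.765 in Δ*mak-2*, against 1147 in the wild type. In Δ*mak-1* that ratio was 6.87, on the other side of 1 from the 0.765 of Δ*mak-2*. The Δ*mak-2* to wild type ratio was 0.00121 at the protoperithecial stage, against 1.82 at the vegetative stage. At the vegetative stage the mutant to wild type ratio was 0.310 in Δ*mak-1* and 1.82 in Δ*mak-2*. The counting intervals of the ratios 0.765, 1.82 and 0.310 hold 1, and they rest on at most 10 reads in either library.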

How the results depend on the processing

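No paired analysis was possible because each condition has 1 library. All 60 alternative values of the 20 member ratios with reads in both libraries, under 3 alternatives each, lay within the counting interval, and 58 stayed on the same side of 1. The other 2 were ratios of NCU05766 that were not called, both under β-tubulin scaling. Its protoperithecial to vegetative ratio in Δ*mak-2* became 0.978, against 1.70, and its vegetative ratio of Δ*mak-2* to the wild type became 1.08, against 0.908. All 3 members stayed called in the wild type between stages and in both mutants at the protoperithecial stage, except that NCU05767 fell out at an RPKM minimum of 20, which left 2 called in each of these 3 comparisons. With no RPKM minimum, by construction, members under 10 RPKM entered comparisons that had 0 called with the minimum. Between stages 3 were called increased in Δ*mak-1* and 1 in Δ*mak-2*. Against the wild type at the vegetative stage 3 were called decreased in Δ*mak-1* and 1 in Δ*mak-2*, but every interval there held 1. Between the mutants 1 was called, as higher in Δ*mak-1*. Shares of all entries at this setting were not computed for these comparisons, so the counts are not read as a result. The run of 3 became 6 with at most 1 other gene between neighbours, and it stayed at 3 without the protoperithecial library of either mutant.

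Counts over all entries moved more. Those increased in the wild type numbered 2894, and 1530 after scaling by the median of ratios over 7705 genes, 1893 after scaling by β-tubulin and 1846 at a fold of 3. The first scaling lowers each wild-type ratio of stages by 0.81 on the log2 scale and the second by 0.56. Entries decreased in Δ*mak-1* at the protoperithecial stage numbered 536, and 287 at a fold of 3, 955 with no minimum and 355 with the whole interval past the threshold. In Δ*mak-2* they numbered 675, and 369, 1262 and 446 under the same settings. Entries increased in the wild type and decreased in both mutants numbered 328, and 188 at a fold of 3, 528 with no minimum, 549 without the Δ*mak-1* library and 412 without the Δ*mak-2* library. Of the stretch of 8 entries, 4 met this description at an RPKM minimum of 20, 8 with no minimum and 6 under each other alternative run for it. On shares of log2(RPKM + 1), 0 of the 5 genes nearest to *poi-2*, 1 of those of NCU05766 and 2 of those of NCU05767 remained among the 5 nearest.

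Depth limits all values of the members outside the wild type at the protoperithecial stage, which rest on 0 to 21 reads. The counting intervals do not cover differences between cultures.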

Other observations

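Farther before the run, genes chosen after their values were seen included some with the same direction and 1 with the opposite. NCU05755 had 6.49 RPKM in Δ*mak-1* and 11.5 RPKM in Δ*mak-2*, against 67.2 RPKM in the protoperithecial wild type. NCU05751 had 32.7 RPKM in each mutant, against 125 RPKM in the wild type. *pre-2* (NCU05758), which encodes a pheromone receptor, had 15.2 RPKM (95 reads) in Δ*mak-1* and 9.24 RPKM (53 reads) in Δ*mak-2*, against 2.67 RPKM (15 reads) in the wild type at that stage. Its ratio to the wild type was 5.70 (3.29 to 10.6) in Δ*mak-1* and 3.46 (1.92 to 6.61) in Δ*mak-2*. By the criteria above *pre-2* was increased in Δ*mak-1*, as were 11% of entries tested. It had no call in Δ*mak-2*, where both libraries compared were under 10 RPKM.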
